A study of Homo sapiens with 18 samples.

Results

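The gelatinases MMP2 and MMP9, the membrane-type metalloproteinases MMP14, MMP15 and MMP24 and their inhibitors TIMP1 to TIMP4 were followed in A549 cells exposed to Ludox silica nanoparticles (NPs). Their probes were taken as the non-control probes whose gene name in the scanner files is one of these 9 symbols of 30484 on the array, which gave 11 of its 41000 probes, and 10 of the 11 passed the filter on dim spots that left 28665 probes. A549 is an established line of human lung adenocarcinoma with alveolar epithelial character, and Ludox NPs are colloidal amorphous silica. Cells received 0.02 mg/mL of SM30 NPs (diameter 9 nm) or AS30 NPs (18 nm) for 2 h without serum and then recovered in medium with serum for 3 h (SM30 and AS30) or 22 h (AS30 alone). Each of these 3 conditions had its own controls, handled in the same way without NPs, and each of the 6 groups held 3 biological replicates, A, B and C, on one-colour Agilent arrays. The model is 1 cultured line, and transcripts were measured, not secreted protein or enzyme activity.

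Matrix metalloproteinases are zinc-dependent enzymes that cut extracellular matrix, growth factors and cell surface proteins, and they are made as inactive proenzymes. The gelatinases cleave denatured collagen and the type IV collagen of basement membranes. Membrane-type enzymes are anchored at the cell surface, where MMP14 activates proMMP2, a step in which TIMP2 takes part. TIMPs occupy the active site of the enzymes. TIMP3 differs from the others in that it stays bound to the matrix and also blocks ADAM17, the sheddase of TNF.

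Alveolar epithelial and A549 markers were read on the same arrays, and 10 of the 12 were well above background on all 18, among them SFTPC, ABCA3 and KRT18. No marker of this list was below it on every array. The leukocyte genes CD68, CD14 and CD3E and the fibroblast genes THY1 and COL1A1 also passed on all 18, so this reading does not settle identity. Of the non-control spots 66.0% to 83.7% were positive and significant per array, none was saturated, and the number of arrays limits the precision of each value. The 18 arrays lay on 5 slides. No slide carried arrays of both particle types. For AS30 at 3 h, treated cells and controls were hybridised on different slides, which are linked only through 1 control array of 22 h on each.

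The promoters of 6 of the 9 genes were found in a RefSeq table of build GRCh38.p14, namely those of MMP14, MMP15, MMP24, TIMP1, TIMP3 and TIMP4. The 250 bases before the annotated start are shown 5′ to 3′ for TIMP3 and TIMP4, which carry the main results, and for TIMP1, which did not pass the test in any comparison of treated with control cells. They lie at chr22:32801455-32801704 (plus strand), chr3:12158913-12159162 (minus strand) and chrX:47582186-47582435 (plus strand). Capitals mark GGGCGG, the GC box bound by SP1, and TGAGTAA, a sequence related to the AP-1 site, on either strand.

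TIMP3: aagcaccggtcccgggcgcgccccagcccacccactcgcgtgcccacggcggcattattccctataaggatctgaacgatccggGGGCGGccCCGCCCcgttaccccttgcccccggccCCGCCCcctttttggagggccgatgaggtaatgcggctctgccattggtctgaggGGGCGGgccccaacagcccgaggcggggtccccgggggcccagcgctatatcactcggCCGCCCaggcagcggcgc
TIMP4: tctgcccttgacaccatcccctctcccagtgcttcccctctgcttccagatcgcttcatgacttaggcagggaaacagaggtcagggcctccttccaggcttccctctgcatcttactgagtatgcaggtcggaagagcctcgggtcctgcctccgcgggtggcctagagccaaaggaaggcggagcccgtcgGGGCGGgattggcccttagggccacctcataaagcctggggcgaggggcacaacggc
TIMP1: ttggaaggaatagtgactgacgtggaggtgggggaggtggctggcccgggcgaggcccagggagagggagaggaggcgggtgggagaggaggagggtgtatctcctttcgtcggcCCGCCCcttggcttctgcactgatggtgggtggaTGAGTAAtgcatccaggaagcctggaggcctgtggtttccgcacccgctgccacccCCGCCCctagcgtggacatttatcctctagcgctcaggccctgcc

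The TIMP3 window held 5 matches of GGGCGG, as did that of MMP15, while TIMP1 had 2, MMP24 had 3, and TIMP4 and MMP14 had 1 each. GGGCGG was present in 42.6% of all 35116 promoter windows of the same length. TGAGTAA was found in the TIMP1 window only among the 6, starting 101 bases before the start site, and in 2.21% of all windows. The AP-1 consensus TGANTCA was in none of the 6 and in 6.57% of all windows. A match describes letters in this window and no binding was measured.

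TIMP3 was the member that differed most from its controls after SM30. The normalized signal, in arbitrary linear units after quantile normalization, after SM30 was 51.2 (A), 59.4 (B) and 59.1 (C), and the controls gave 10.5, 12.0 and 10.3. All 3 treated arrays lay above all controls, and the 3 ratios were close to each other, at 2.28, 2.30 and 2.52 on the log2 scale. The probe (A_23_P399078, hg18 chr22:31588540-31588599) was well above background in the 3 SM30 arrays and in no control array. The rise was therefore at least 3.19-fold, with each control array set at its dimmest probe that was well above background, with group means of 5.82 and 3.45 (log2) as measured and a limma adjusted p of 0.0043. Within the one slide that held SM30 array A and the 3 controls the difference was 2.23, and with slide as a fixed block, which leaves those arrays alone to estimate it, the adjusted p was 0.22. The call was also lost without the filter on dim spots (2.37, adjusted p = 0.068) and with normexp background correction, whose offset of 50 is as large as the signal itself (0.31, adjusted p = 0.061). The filter left TIMP3 measured on 13 of 18 arrays, with 1 pair in each AS30 class. Its own spread in the reported fit therefore came from the SM30 ratios alone. Without the filter the AS30 ratios entered too, at 1.32, 3.60 and 3.32 for 3 h and -0.01, 1.74 and -0.95 for 22 h. A change in the share of cells that carry a transcript and one in its amount per cell cannot be told apart in such bulk samples.

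After AS30 at 3 h, TIMP3 gave 15.3 (A), 68.6 (B) and 58.4 (C), compared with control signals of 6.13, 5.67 and 5.83. Arrays B and C reached the level of the SM30 arrays, array A did not, and all 3 were above their controls. The control spots of B and C were not positive and significant, so that only pair A entered the ratio fit, with a log2 difference of 1.32 and an adjusted p of 0.072, which missed the threshold. The ratios with all spots kept were 1.32, 3.60 and 3.32. With the 3 AS30 arrays set against the 1 positive control spot, that of array A, the difference was 2.68 with an adjusted p of 0.0028, which includes no spread between controls. A fit with slide as a fixed block gave no value for TIMP3 here, since the arrays linking the slides were missing. The mean with array A included did not exceed the background limit of the controls, and no fold is given. At 22 h TIMP3 was 5.64, 19.7 and 10.2 after AS30 and 5.66, 5.90 and 19.8 in the controls. Both groups overlapped and neither was well above background on any array.

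TIMP4, the least widely expressed of the inhibitors, rose after AS30 at 22 h. Its signal was 1750, 1870 and 1690 in the treated arrays and 1180, 1010 and 1180 in the controls, with no overlap. The fold was 1.58 (log2 difference 0.66 ± 0.13, SE, n = 3 pairs, adjusted p = 0.039), and 3 of 3 pairs were higher. Leaving out pair A, B or C gave 0.70, 0.54 and 0.73 with adjusted p of 0.14, 0.093 and 0.083, and the call was also lost without any one of the SM30 pairs or AS30 pair A of 3 h (0.059 to 0.074). On the slide that held the 3 treated arrays and control C the difference was 0.58, and with slide as a fixed block the call was lost (adjusted p = 0.34), as it was with the compared groups alone (0.21) and without the filter on dim spots (0.060). At 3 h the TIMP4 difference was 0.18 ± 0.13 after AS30 and 0.06 ± 0.13 after SM30, neither past the threshold. The change of the AS30 response from 3 h to 22 h was 0.48 with a 95% interval of 0.06 to 0.91 and an adjusted p of 0.25. Over the 6 groups the AS30 22 h level stood clear of the next one, AS30 at 3 h, while the remaining neighbours in the order did not differ beyond their spread. This order spans culture sets and slides.

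TIMP2, which both inhibits MMP2 and takes part in its activation, did not pass the threshold in any comparison. Its signal was 9250, 9740 and 9460 after SM30 and 5960, 6160 and 6750 in the controls, and 10100, 10400 and 13000 after AS30 at 22 h and 5900, 6720 and 8800 in theirs. The treated arrays were above the controls in both cases without overlap. The log2 differences were 0.59 ± 0.20 (adjusted p = 0.11) and 0.66 ± 0.20 (adjusted p = 0.10), with 3 of 3 pairs higher in each. Within the slide that held the treated arrays of 22 h and control C the TIMP2 difference was 0.34. After AS30 at 3 h the 6 arrays overlapped, from 6900 to 13100 against 5460 to 10800. With TIMP2 as with TIMP3, the result depended on how controls were used, since ratios over the mean of the 3 controls gave adjusted p of 0.021 and 0.015 for SM30 and for AS30 at 22 h.

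TIMP1, the inhibitor that binds proMMP9, differed little. Signals were 1910, 1300 and 2190 after SM30 against 1630, 1440 and 1400, and the log2 difference was 0.24 with a 95% interval of -0.25 to 0.73. The differences after AS30 were 0.20 (-0.30 to 0.69) at 3 h and 0.26 (-0.23 to 0.75) at 22 h, and in each comparison 2 of 3 pairs were higher. A change of up to these bounds is not shown to be absent.

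**Figure D1:**
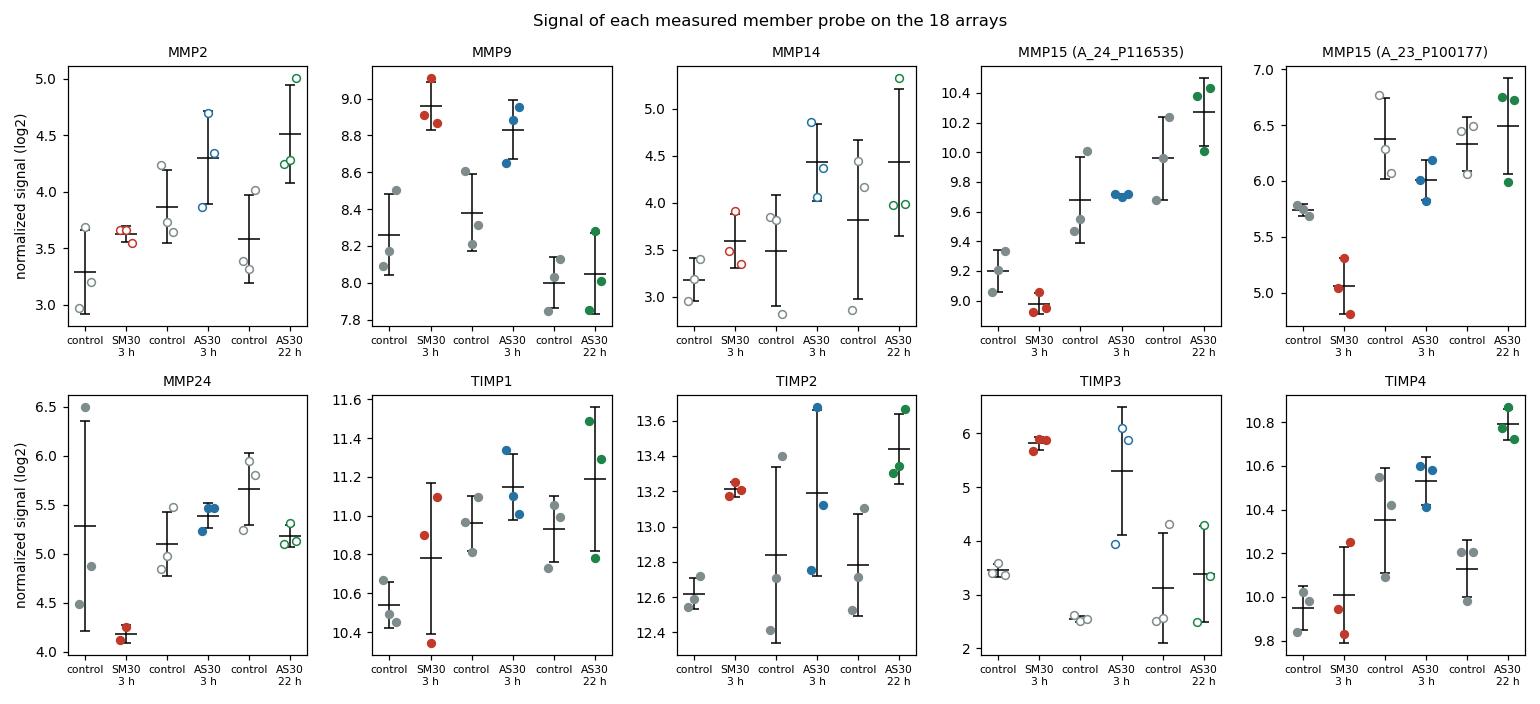
Normalized signal (log2, vertical axis, with its own range for each panel) of the 10 member probes in the 6 groups, with each control group to the left of its treated group. Points are arrays, black bars are the mean and SD, and open points mark groups in which fewer than 3 arrays were well above background. TIMP3 separates the 3 SM30 arrays (51.2 to 59.4 in linear units) from their controls (10.3 to 12.0), and 1 SM30 array of MMP24 is missing because its spot was marked as an outlier.

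MMP9 was the gelatinase that A549 cells gave at a measurable level, well above background on all 18 arrays. Its probe (A_23_P40174, hg18 chr20:44078528-44078587) is printed as 10 spots per array, and the SD over spots within an array had a median of 0.07 log2 units once marked spots were left out. The signal was 482, 553 and 467 after SM30 and 273, 289 and 363 in the controls, without overlap. The rise of 1.63-fold (log2 0.71 ± 0.17, n = 3 pairs, adjusted p = 0.041) was close to the threshold, and leaving out SM30 pair A, B or C gave 0.65, 0.59 and 0.88 with adjusted p of 0.16, 0.22 and 0.083. The shared spread also mattered, since the adjusted p was 0.057 and 0.058 without AS30 pair A or C of 22 h. On the slide shared by SM30 array A and the controls the difference was 0.66, and with slide as a fixed block the call was lost (adjusted p = 0.23). It was also lost with the compared groups alone (0.066), without the filter on dim spots (0.072) and with outlier spots kept (0.13). With outlier spots kept the difference after SM30 was 0.72, and the standard error, which all 3 classes share, was 0.26 in place of 0.17.

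After AS30 at 3 h MMP9 was 402, 473 and 497 against 390, 296 and 318, again without overlap. The log2 difference of 0.45 ± 0.17 did not pass (adjusted p = 0.15), and pair A showed no difference (0.04). At 22 h the groups overlapped, at 231, 311 and 258 against 230, 262 and 280, with a difference of 0.05 and a 95% interval of -0.34 to 0.43. In the order of the 6 groups, SM30 and AS30 at 3 h stood highest, though this order spans culture sets and slides. The lowest of these treated arrays, AS30 array A at 402, was near its own control at 390. The responses to SM30 and AS30 at 3 h differed by 0.25 (-0.29 to 0.80), which was not called.

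MMP9 is also a product of neutrophils and macrophages, and the leukocyte markers were therefore read on the same arrays. Of 8 such genes 3 were not well above background on any array, the pan-leukocyte gene PTPRC among them, together with ELANE and MS4A1. CD68, CD14 and CD3E were above it on all 18, and the summed signal of the list was 1340 to 1420 after SM30 and 937 to 995 in the controls. It was 1760 to 1980 against 929 to 1170 for AS30 at 3 h and 1780 to 3770 against 1130 to 1460 at 22 h. After SM30 CD68, ITGAM, CD14 and CD3E differed by 0.97, 0.38, -0.24 and -0.56 on the log2 scale. In the same order AS30 gave 0.97, 0.54, 0.62 and 0.62 at 3 h, and 1.67, 0.32, -0.02 and -0.25 at 22 h. The sum after SM30 or at 22 h therefore does not stand for each marker. Limma called 0 of the 4 leukocyte markers tested after SM30 or after AS30 at 3 h (1 and 2 at an unadjusted p under 0.05, with CD68 higher by 0.97 and an adjusted p of 0.053 after SM30), and CD68 rose 3.18-fold after AS30 at 22 h (adjusted p = 0.020), when MMP9 did not differ. The part of these signals in the MMP9, TIMP3 and TIMP4 results was not tested. Fibroblast markers summed to 1670 to 2030 after SM30 and 2210 to 2440 in the controls. For AS30 the sums were 9170 to 10800 against 3750 to 11800 at 3 h and 5380 to 6500 against 5180 to 10800 at 22 h. Of these 7 genes THY1 and COL1A1 were well above background on all 18 arrays, and COL1A2, COL3A1 and PDGFRB were so on none. Endothelial markers summed to 35.9 to 44.7 after SM30 and 33.4 to 51.2 in the controls, with PECAM1 not well above background on any array. Limma called 0 of 3 fibroblast markers tested at 3 h (1 at an unadjusted p under 0.05 for each NP), LUM was called lower after AS30 at 22 h (adjusted p = 0.031) with 1 control array and 0 treated arrays well above background, so no fold is given, and the 1 endothelial marker tested was not called. Among the alveolar markers 0 of 12 were called by limma at 3 h (2 unadjusted after SM30 and 0 after AS30), and after AS30 at 22 h KRT19 rose by 1.21 and SFTPA1 fell by 0.87 on the log2 scale.

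**Figure D2:**
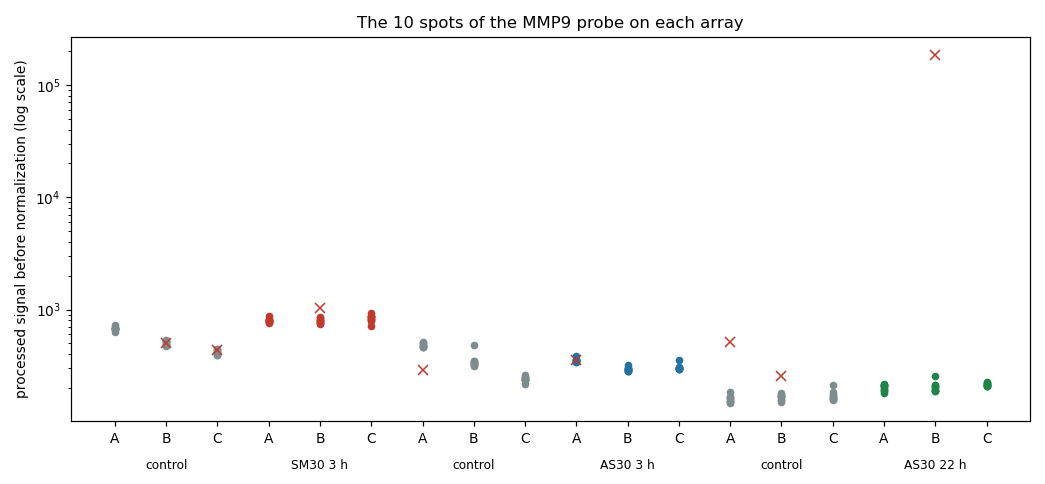
Processed signal before normalization (log scale) of each of the 10 MMP9 spots on every array, with arrays A, B and C of each group along the horizontal axis. Crosses are spots that Feature Extraction marked as outliers. On AS30 22 h array B 1 spot read 186000 while the other 9 spots read 189 to 257.

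MMP2 was close to background. Its probe (A_23_P163787, hg18 chr16:54096763-54096822) was well above it on 1 of 18 arrays, from AS30 at 22 h. Signals were 12.7, 12.7 and 11.7 after SM30 and 7.84, 12.9 and 9.23 in the controls, and 14.6, 25.9 and 20.3 after AS30 at 3 h and 18.8, 13.3 and 12.5 in theirs, with overlap in both. At 22 h they were 19.0, 19.4 and 32.1 against 10.5, 9.97 and 16.2. These last groups did not overlap, but a control was positive on 1 of 3 arrays and the adjusted p was 0.37. No fold is given, since the levels lay at the background limit.

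MMP14, the activator of proMMP2, was likewise dim and was well above background on 1 array, from AS30 at 3 h. Signals of 10.2 to 15.1 were read after SM30, with controls at 7.74 to 10.6, from 16.7 to 29.1 after AS30 at 3 h and from 7.04 to 14.4 in theirs, and from 15.7 to 40.1 at 22 h against 7.25 to 21.8. The AS30 arrays at 3 h lay above all their controls and the other groups overlapped, and adjusted p-values were 0.34, 0.24 and 0.83 in the order SM30, AS30 at 3 h and AS30 at 22 h.

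MMP15 was read by a pair of probes to the transcript NM_002428, and both were lower after SM30 in 3 of 3 pairs, though neither was called. The probe A_23_P100177 (hg18 chr16:56637027-56637086) gave 33, 39.6 and 28.1 after SM30 and 55.1, 53.9 and 51.5 in the controls, without overlap, and a log2 difference of -0.68 ± 0.18 with an adjusted p of 0.052. The brighter probe A_24_P116535 (hg18 chr16:56637985-56638044) gave 485, 532 and 495 against 533, 591 and 647, so that the ranges nearly touched, at 532 and 533. Its log2 difference was -0.23 ± 0.16 with an adjusted p of 0.42. The probes thus had the same sign and differed in size. After AS30 the differences were -0.37 and 0.03 at 3 h and 0.16 and 0.31 at 22 h in the same order, none of them called.

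MMP24, a membrane-type enzyme best known from neural tissue, gave 17.4 and 19.0 in SM30 arrays A and B, with no value in C because its spot was marked as an outlier, and 22.4, 90.3 and 29.3 in the controls. The treated arrays were below all controls, yet the ratios were -0.36 and -2.25 and control B decided their mean of -1.30 ± 0.39 (adjusted p = 0.091). Without pair A the value was -2.25 with an adjusted p of 0.029, without pair B it was -0.36 with an adjusted p of 0.58, and with outlier spots kept it was -0.27. After AS30 the differences were 0.29 at 3 h and -0.48 at 22 h, neither called. The AS30 controls were well above background on 0 of 3 arrays at 3 h, so no fold is given there, and on 1 of 3 at 22 h.

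**Figure D3:**
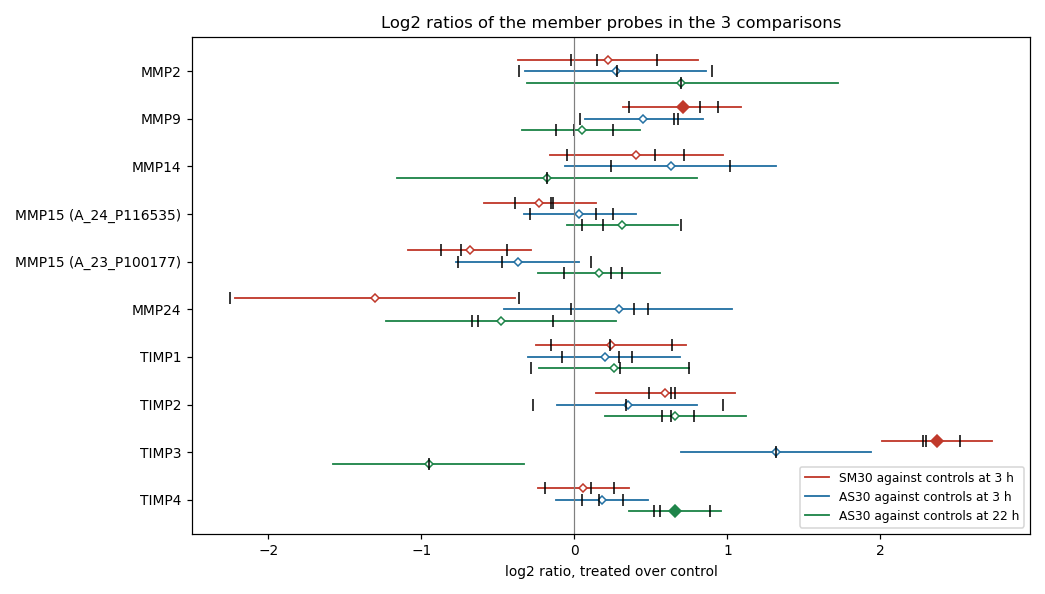
Log2 ratio of treated over control cells (horizontal axis) for the 10 member probes in the 3 comparisons. Ticks are the ratios of single pairs, diamonds are the limma estimates with their 95% intervals, and filled diamonds passed the adjusted threshold of 0.05. The filled ones are TIMP3 (2.37) and MMP9 (0.71) after SM30 and TIMP4 (0.66) after AS30 at 22 h, and the single ticks of TIMP3 after AS30 show that 1 pair entered the fit there.

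Counted together, 2 of 10 member probes were called after SM30, both higher, where 7.49% of all 28664 probes tested were called. After AS30 at 3 h 0 of 10 were called by limma, against 2.52% of all probes. At an unadjusted p under 0.05 there were 2 of 10, and 6964 of all 28596 probes. After AS30 at 22 h 1 of 10 was called, against 3.58%. The median log2 difference of the member probes was 0.23, 0.28 and 0.21 in these comparisons, and that of all probes -0.05, 0.01 and -0.0047. With slide as a fixed block, the uncalled differences after AS30 at 3 h changed sign for MMP24 (0.29 to -0.42), TIMP1 (0.20 to -0.13) and both MMP15 probes (0.03 to -0.25 and -0.37 to 0.01), and none was called. Counts of 0 to 2 among 10 probes are too few to set against these shares. No member was called between the SM30 and AS30 responses at 3 h (0 of 10, against 0.0140% of all probes). The same held between the AS30 responses at 22 h and 3 h (against 0.0285%) and in the F-test over the 3 classes (against 0.0855%). At an unadjusted limma p under 0.05 these had 2, 2 and 4 of the 10 member probes. Over all probes they had 4176 of 28595, 4735 of 28086 and 5405 of 28085. The 2 between SM30 and AS30 were MMP24 (-1.59) and TIMP3 (1.05). That MMP24 value rested on 2 SM30 pairs. The TIMP3 value rested on 1 AS30 pair and changed sign in 4 of 18 alternatives. The comparisons of SM30 and AS30 with controls thus differ in which members passed, without a called difference between the responses themselves. The responses at 22 h and 3 h used separate controls, as did those of SM30 and AS30.

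Untreated cells were compared between the sets. Of the 10 member probes limma called 3 between the SM30 controls and the AS30 controls at 3 h, all lower in the SM30 controls. This is near the share over all probes, of which 26.8% were called. The 3 were both MMP15 probes (-0.48 and -0.64, adjusted p = 0.046 and 0.045) and TIMP4 (-0.40, adjusted p = 0.043). TIMP4 gave 917, 1040 and 1010 against 1500, 1090 and 1370. These calls were lost in 7, 11 and 11 of 19 alternatives, in the same order. The control sets lay on separate slides, and set, slide and culture cannot be told apart. Between the AS30 controls at 22 h and at 3 h 0 of 10 were called by limma, against 1.30% of all probes. At an unadjusted p under 0.05 there was 1 of 10 (MMP9, -0.37), and 4210 of all 28179 probes.

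Other genes of the same proteolytic system were read in lists, for which 1 probe was used per gene. Of all genes 7.67% were called after SM30, 2.62% after AS30 at 3 h and 3.84% after AS30 at 22 h. Of all probes, 7207 of 28664, 6964 of 28596 and 6452 of 28155 had an unadjusted p under 0.05 in these comparisons. Of the 9 metalloproteinases of the 11q22 cluster on the array 3 were measured. The collagenase MMP1 rose in all 3 comparisons, by 7.09 ± 0.38, 6.04 ± 0.38 and 4.04 ± 0.67 on the log2 scale, the last with controls at background, which bounds it at 4.52-fold or more. The stromelysin MMP10 rose by 4.60 after SM30 and 3.46 after AS30 at 3 h and was not called at 22 h (0.85), and MMP7, matrilysin, was not called in any. Among the other metalloproteinases outside the cluster, MMP11, MMP17, MMP19, MMP25 and MMP28 were measured after SM30, and 0 were called by limma in any comparison, with 1 at an unadjusted p under 0.05 after SM30 and 1 after AS30 at 3 h, MMP25 in both cases (-0.44 and 0.61), and 0 after AS30 at 22 h.

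In the list of proenzyme activation, all 11 genes were measured. PLAU, the urokinase that turns plasminogen into plasmin, rose 2.44-fold after SM30 and 1.96-fold after AS30 at 3 h (adjusted p = 0.0023 and 0.016). Its receptor PLAUR rose 3.23-fold, 2.53-fold and 2.03-fold in the 3 comparisons. SERPINE2, an inhibitor of plasminogen activators and thrombin, rose 1.79-fold after SM30 and 1.70-fold after AS30 at 22 h, and PLAT, the tissue-type activator, rose 2.16-fold after AS30 at 22 h. In total 3, 2 and 3 genes of the list rose and 0 fell. The convertase FURIN, which cleaves proMMP14, was not called (0.16, 0.12 and 0.46).

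Among inhibitors, receptors and partners other than TIMPs, 10 of 11 genes were measured and 2 were called after SM30. CD44, a surface receptor on which MMP9 can dock, rose 1.62-fold, and THBS1, a matrix protein that binds gelatinases, fell 4.61-fold (adjusted p = 0.036 and 0.021). RECK, a membrane-anchored inhibitor of MMPs, was not called in any comparison (-0.13, -0.30 and -0.25), and limma called none of the list after AS30, with 1 gene at an unadjusted p under 0.05 at 3 h and 2 at 22 h. The 14 transcription factors that bind MMP and TIMP promoters had 5 rises and 0 falls after SM30, JUN by 2.55-fold, NFKB1 by 1.65-fold, RUNX1 by 1.64-fold, FOSL2 by 1.63-fold and ETS2 by 1.54-fold, with a list median of 0.57. After AS30 at 3 h the list median was 0.41 and 0 of 14 were called by limma. At an unadjusted p under 0.05 there were 9 of 14, and 6964 of all 28596 probes. At 22 h the list median was -0.04 with 0 called (2 unadjusted). SP1, which binds the GC box, differed by 0.02 and 0.03 at 3 h. FOSL2 and ETS2 were named after their values were seen.

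Inducer cytokines had 1 rise and 1 fall called after SM30 among 8 measured, with a list median of 0.78. TNF rose by 1.81 on the log2 scale and TGFB2 fell by 0.76 (adjusted p = 0.0051 and 0.026). IL1B, IL6, LIF and OSM were also higher after SM30 at an unadjusted p under 0.05, without a limma call (adjusted p = 0.17, 0.13, 0.068 and 0.17). They were named after their values were seen. Limma called none of the list after AS30 (1 of 8 at an unadjusted p under 0.05 at 3 h, 0 of 6 at 22 h). Of the 9 ADAM and ADAMTS genes measured 0 were called by limma in any comparison, with 1, 1 and 3 at an unadjusted p under 0.05. Among 21 basement membrane and matrix substrates LAMB3, a chain of laminin-332, rose 2.14-fold after SM30, limma called 0 after AS30 at 3 h (6 unadjusted), and after AS30 at 22 h LAMA3, another chain of it, rose 1.78-fold and COL4A1, a chain of the type IV collagen that gelatinases cleave, fell 1.83-fold.

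The genes whose signal over the 18 arrays was most alike were sought among 10888 other named genes measured on every array, as a description in which the arrays share sets and slides. For MMP9 they were BPGM, EHD4 and TRAF1 (r = 0.93, 0.93 and 0.92). For TIMP2 they were VEGFC, APH1B and CRYAB (r = 0.94, 0.93 and 0.90), for TIMP4 PGAP6, CACNB3 and STAT2 (r = 0.91 each), for MMP15 NBAS, GIPC1 and P3H4 (r = 0.97, 0.96 and 0.96) and for TIMP1 MST1, ITPR3 and HLA-H (r = 0.86, 0.83 and 0.82). MMP2, MMP14, MMP24 and TIMP3 had missing values on some arrays and were not compared in this way.

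**Figure D4:**
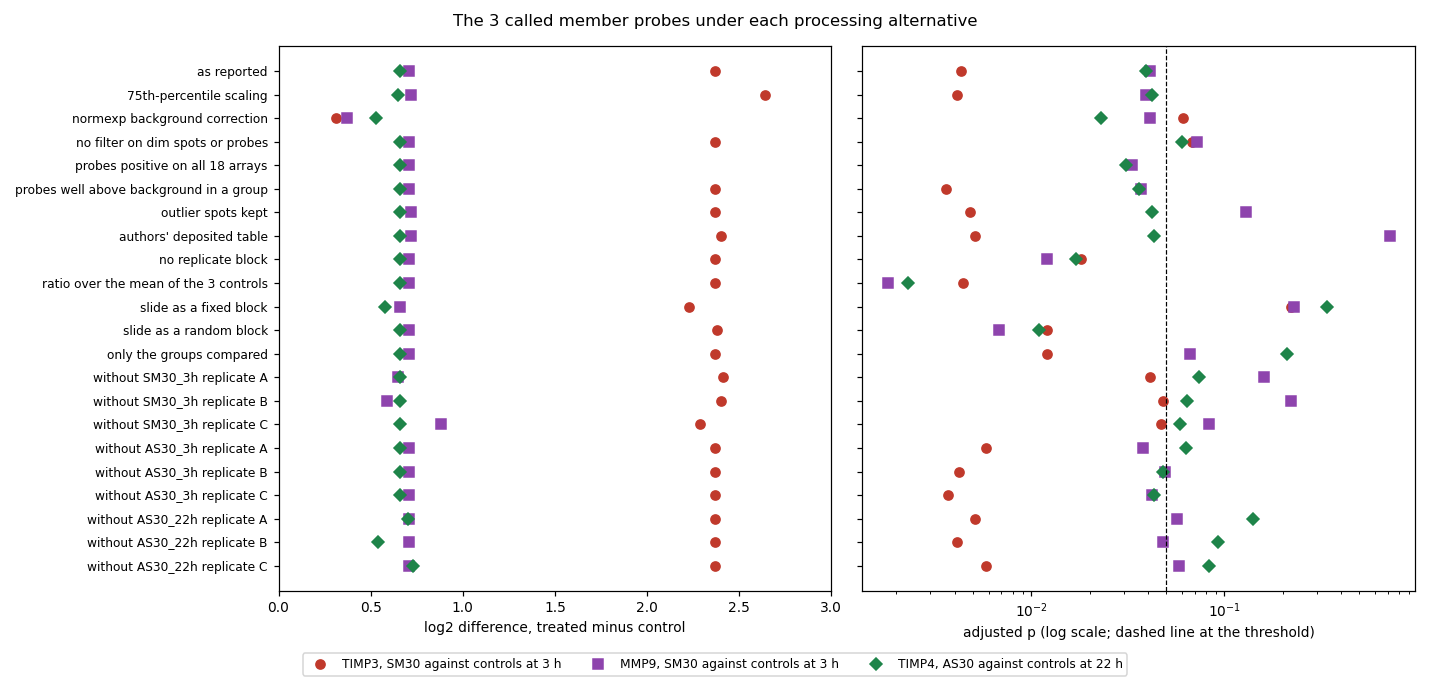
Log2 difference (left) and limma adjusted p on a log axis (right) of the 3 called member probes under each way of processing the data, with the threshold of 0.05 dashed. TIMP3 stays near 2.37 except with normexp background correction (0.31), and the adjusted p of each of the 3 lies on either side of the threshold. The call was lost for TIMP3 in 3 of 20 alternatives, and for MMP9 and TIMP4 in 10 of 21 each.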

How the data were processed

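Total RNA of 18 A549 cultures was read on one-colour Agilent arrays. Per the file headers, the deposited spot intensity values were written by Agilent Feature Extraction 10.5.1.1, and the processed signal is background-corrected on a linear scale. The authors also deposited a table of linear intensities after quantile normalization, used as an alternative only.

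Control spots were dropped, log2 processed signals were quantile-normalized over the 18 arrays, spots that were not positive and significant became missing values, outlier-marked spots were dropped, replicate spots were averaged, and probes missing in over 33% of arrays were removed. The log2 ratio of each treated array over the control array of the same letter was fitted with limma 3.58.1 (R 4.3.3) as 3 classes, with Benjamini-Hochberg adjustment over all probes and a threshold of 0.05. Untreated groups were compared in a fit of all 18 arrays as 6 groups. For a probe not well above background on any array of a group, a fold is given as a bound.

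Members and gene lists were chosen with earlier results of these data known. The text names all member probes, up to 3 largest rises and falls per list and comparison, and the 3 genes most alike to each member. Probe positions are on build hg18, as in the scanner files, and which exon or UTR they fall in was not determined here. Alternatives concerned scaling, background correction, filters, the deposited table, pairing, slide and leaving out each pair.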

Additional observations from a re-analysis of the deposited data

Results flagged for a closer look

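MMP9 in the deposited table stood far from its own spots on 1 array. For AS30 array B at 22 h the table holds 21500, where the 3 controls of that set hold 314, 306 and 312 and arrays A and C hold 254 and 285. In the scanner file of that array 1 of the 10 MMP9 spots read 186000 and was marked as an outlier, 724 times the next highest spot at 257. The mean over the other spots after normalization was 311. Among 169 values of member probes in the table, this was the only one more than 1 log2 unit from the mean of its unmarked spots. With the table, the MMP9 difference after AS30 at 22 h became 1.90 ± 1.05 (adjusted p = 0.33) in place of 0.05 ± 0.17. Because the fit shares its spread over the 3 classes, the standard error after SM30 also went from 0.17 to 1.05 and the adjusted p from 0.041 to 0.72, at nearly the same difference (0.71 and 0.72).

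The second probe named TIMP2 in the files (A_24_P169896, accession AK057217, hg18 chr17:74398565-74398624), which the filter removed, gave 16.8, 14.9 and 19.1 after SM30 and 6.74, 10.7 and 6.25 in the controls, which do not overlap. The measured log2 means lay 1.13 apart, with the controls at background, so no fold is given. It was well above background on 1 of these 3 SM30 arrays and on 2 of 18 arrays in all, and no test was made. Its accession was not paired with TIMP2 in the RefSeq table, and whether it reads TIMP2 is uncertain.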

How the results depend on the processing

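Of 119 alternative values of called member probes 67 kept the call, 52 lost it and 0 changed sign, and of 1253 values of uncalled ones 30 passed the threshold and 49 changed sign without a call. After SM30 2 members were called, against 1 with normexp, with outlier spots kept or with the deposited table, 0 without the filter on dim spots or with slide as a fixed block, 5 with ratios over the mean of the measured controls, and 1 to 4 leaving out 1 pair. After AS30 at 3 h 0 became 3 over the mean of the controls, 2 with slide as a random block and 0 to 2 leaving out 1 pair. After AS30 at 22 h 1 became 0 without the filter, with the fixed slide block or with the compared groups alone, 4 over the mean of the controls and 0 to 2 leaving out 1 pair. Ratios over the mean of the controls, which omit their spread and rest on 1 control where the others are missing, also gave 1 for SM30 against AS30, 3 for 22 h against 3 h and 6 in the F-test, which gave 0 to 1 leaving out 1 pair. Between the untreated sets 3 became 1 with normexp, 0 without the filter or with the compared groups alone, and 0 to 3 leaving out 1 pair. Normexp adds an offset of 50, and TIMP3 and MMP9 after SM30 were then 0.31 (adjusted p = 0.061) and 0.37 (0.041). Without the replicate block (the pairing by letter) member calls stayed at 2, 0 and 1, while calls over all probes went from 2146, 720 and 1008 to 2518, 1313 and 1408. Deviations of same-letter arrays correlated at -0.091 to 0.48, so the letters may be names only. Dim signal limits MMP2, MMP14 and TIMP3, and MMP24 in the AS30 controls. The cause of the other changes was not tested.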
